A study of Drosophila melanogaster with 2 samples.

Results

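The regions described here are ChIP-seq peaks of the GFP-tagged zinc finger protein fu2 whose summit lay 1 to 500 bp downstream of the nearest annotated transcript start, on the side that is transcribed. There were 370 of them among 3033 peaks that passed the authors' irreproducible discovery rate (IDR) threshold on the dm6 build, which is 12.2% (exact 95% interval 11.1 to 13.4). They were chosen by position alone: the summit was taken from the IDR list, the nearest start from the Ensembl annotation without transposable elements, and ties between genes went to the symbol first in the alphabet, which decided 4 peaks. The fly line (strain fu2-GFP) stably expresses fu2 with GFP at its C-terminus, and its transgene is labelled as targeting prg, the current name of fu2. Whole embryos of both sexes, 0 to 24 h old, were used, so no cell type can be assigned, and chromatin sheared by sonication to 200 to 800 bp was immunoprecipitated with an antibody against GFP. The series holds 2 replicates of this 1 group, biological replicates 2 and 3 by their labels, and every comparison below is among regions or between these replicates, with no condition to test. The lists give no reads, so depth is unknown, and the intervals hold for the counting of regions alone. Neither a control library nor embryos with GFP alone were analysed here.

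A transcript start is the point at which RNA polymerase begins copying a gene. The core promoter spans both sides of it, and the stretch just downstream holds the 5′ UTR, which is transcribed but not translated, and in many fly genes a short first exon followed by the first intron. Drosophila promoters of broadly expressed genes often carry short sequence words. Among these are the DNA replication-related element (DRE), bound by DREF and BEAF-32, motif 7 of the core promoter set, and the motif of M1BP, a zinc finger protein of ribosomal protein and other housekeeping promoters.

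Each promoter word is shown here at the strongest downstream peaks, outside the arm not shown, that held it within 50 bp of the summit. This lets the letters be read beside the counts given further on. The words searched were TATCGATA (DRE), CAGCNCTA or CATCNCTA (motif 7), the same letters ending in G, the 8-mer CAACACTG, which earlier work on these same peaks had picked out, and the M1BP motif, all on both strands. Motif 7 and its form ending in G share every letter but the last. Each stretch is 30 bases of dm6 on the strand of the gene, with the word in capitals.
RpL7, motif 7 ending in G: cacgcatttcgCAGCACTGaaagcagggtt
lncRNA:CR44619, motif 7 ending in G: aaaatatcgcaCATCCCTGaacagtgcaca
Pkc98E, motif 7: ccaccttggcaCATCGCTAacgtttttcca
CG14818, motif 7: aggcacgggcaCATCCCTAaaaactaagtg
CG8892, CAACACTG read on the opposite strand: actggcgcaagCAGTGTTGgcagccactcc
Hsp83, CAACACTG: cgaccgtatcaCAACACTGatctaccctag
Rab7, DRE: cacgactgcacTATCGATAaccagtactga
RpL36, DRE: gcccgcccgccTATCGATAataaggcacga
RpL27A, M1BP motif: cgccgccgggCGGTCACACTGctacaaccg
fs(2)ltoPP43, M1BP motif: atgccccgaaCGGTCACACTGcgcgtcgca
On the plus strand these are chr2L:10201028-10201057 for RpL7, chrX:12752376-12752405 for lncRNA:CR44619, chr3R:29039143-29039172 for Pkc98E, chr3L:3193077-3193106 for Hsp83 and chr3R:23992980-23993009 for Rab7. On the minus strand they are chrX:1879737-1879766 for CG14818, chr2L:4981589-4981618 for CG8892, chrX:629459-629488 for RpL36, chr2L:4458330-4458359 for RpL27A and chr2L:19795806-19795835 for fs(2)ltoPP43. In RpL27A the M1BP motif was centred on the transcript start itself, and in RpL7 the word was centred 38.5 bp downstream of the start.

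A second set of sequences comes from the introns, where no DRE, motif 7, CAACACTG or M1BP motif lay within 50 bp of any of 65 summits, so that the surroundings of the summit are shown in their place. These are the 5 strongest intronic downstream peaks on the arms shown whose 101 bases around the summit overlap no annotated exon, which leaves out CG11309 and CG13901, both stronger than some that are shown. The 101 bases are on the strand of the gene, with the 7 centred on the summit in capitals. CG13901 and Eip63F-1 were named after their values were seen.
Fer2LCH: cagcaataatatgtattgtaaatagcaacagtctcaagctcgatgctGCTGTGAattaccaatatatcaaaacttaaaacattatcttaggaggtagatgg
CG31612: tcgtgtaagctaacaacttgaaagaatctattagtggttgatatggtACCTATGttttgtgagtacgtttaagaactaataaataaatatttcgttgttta
rudhira: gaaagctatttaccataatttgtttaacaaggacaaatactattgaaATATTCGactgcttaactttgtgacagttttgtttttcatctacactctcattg
Eip63F-1: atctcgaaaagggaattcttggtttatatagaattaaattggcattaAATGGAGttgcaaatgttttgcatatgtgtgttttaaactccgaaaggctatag
eIF3h: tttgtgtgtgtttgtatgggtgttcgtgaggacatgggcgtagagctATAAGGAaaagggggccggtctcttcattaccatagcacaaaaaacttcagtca
They lie at chr3R:30388444-30388544 (plus strand, Fer2LCH), chr2L:21794913-21795013 (minus, CG31612), chrX:11818540-11818640 (plus, rudhira), chr3L:3928639-3928739 (minus, Eip63F-1) and chr2L:5052449-5052549 (minus, eIF3h). In 4 of these 5 the window was rich in A and T, with a GC content of 28.7% at CG31612, 29.7% at rudhira, 31.7% at Eip63F-1 and 33.7% at Fer2LCH, against 45.5% at eIF3h.

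The downstream peaks crowded close to the start. Their median distance was 64 bp (quartiles 20 and 178 bp), 160 of 370 lay within 50 bp and 231 (62.4%, 57.3 to 67.4) within 100 bp. By length of sequence available, the 9.91 Mb of dm6 that lie nearest to a start on its downstream side held 37.3 IDR summits per Mb, the 8.21 Mb upstream held 189.7, and the arms without Y as a whole held 22.7. In steps of 50 bp, the downstream density fell from 140.6 per Mb at 1 to 50 bp to 65.3 at 51 to 100 bp, 32.6 at 101 to 150 bp and 9.51 at 301 to 350 bp. From 351 to 500 bp it stood between 14.5 and 19.8 per Mb, under the 22.7 of the arms as a whole. The first step upstream held 368.6 per Mb and the second 362.8, more than in any step downstream, and the density was still 192.7 per Mb at 151 to 200 bp upstream.

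**Figure D1:**
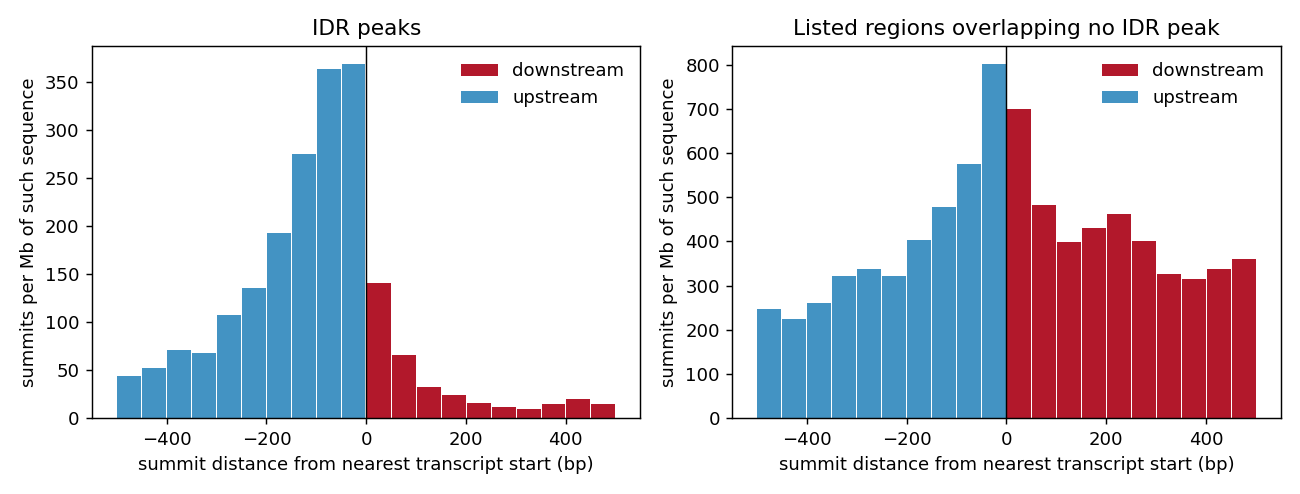
Summits per Mb of sequence at each distance from the nearest transcript start, in steps of 50 bp, for the 3033 IDR peaks (left) and for the listed regions that overlap no IDR peak (right); red bars are downstream and blue bars upstream, and the vertical scales differ. IDR summits fall from 140.6 to 65.3 per Mb over the first 100 bp downstream, while the weaker regions lie between 315.4 and 700.5 per Mb on that side.

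Among listed regions, the downstream side of starts was common where the signal was weak and uncommon where it was strong. Of IDR summits 1 to 500 bp from a start, 370 of 1928 lay downstream (19.2%, 17.5 to 21.0). Of the 7758 such summits among listed regions that overlap no IDR peak, 4244 did (54.7%, 53.6 to 55.8), and of those in the strongest 3033 regions under the threshold, 638 of 1552 did (41.1%, 38.6 to 43.6). Each replicate list gave a value near that of the IDR peaks when its strongest 3033 regions were taken alone, 20.7% (395 of 1910) in replicate 2 and 21.7% (417 of 1926) in replicate 3, a mean of 21.2% ± 0.686 (SD, n = 2). Within the IDR peaks the share changed little with rank by signal value: it was 18.4% at ranks 1 to 300, 16.5% at 301 to 1000, 18.5% at 1001 to 2000 and 22.3% at 2001 to 3033. At ranks 3034 to 5000, just under the threshold, it was 39.8% (36.8 to 42.8), and it was 60.3% at ranks 20001 to 30000. By distance, 27.9% (160 of 573) of IDR summits 1 to 50 bp from a start were downstream and 12.1% (58 of 481) of those at 101 to 200 bp, against 47.0% and 51.8% of the regions under the threshold. With summits that had a single start position within 500 bp, 144 of 895 IDR peaks (16.1%, 13.7 to 18.7) and 3093 of 5389 weaker regions (57.4%, 56.1 to 58.7) were downstream. Of all 30000 listed regions 10.1% were IDR peaks, of those 1 to 500 bp downstream 7.66% and of those upstream 29.5%, values that the choice of IDR peaks fixes and that are given as background.

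**Figure D2:**
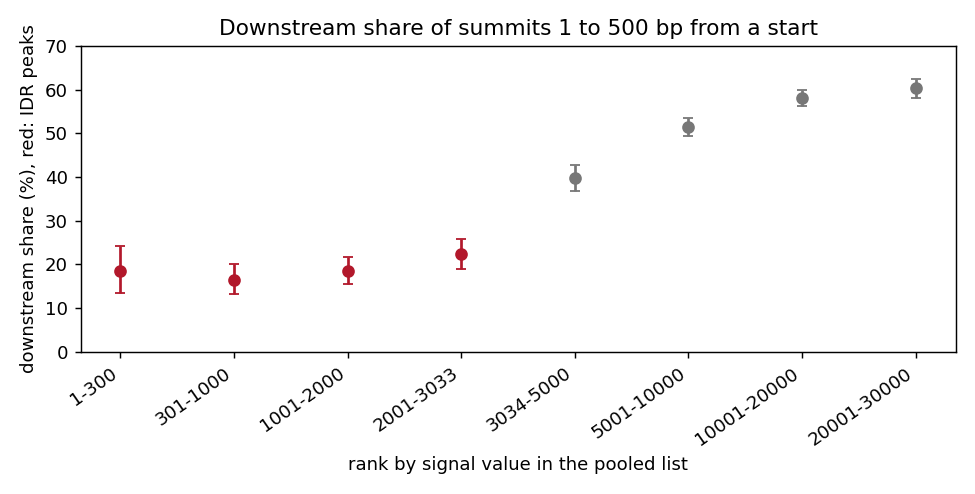
Share of summits 1 to 500 bp from a transcript start that lie downstream of it, by rank of the region's signal value in the pooled list; bars are exact 95% binomial intervals over regions, red points are IDR peaks and grey points all listed regions ranked below them. The red points lie between 16.5% and 22.3%, and the grey points rise from 39.8% to 60.3%.

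In the nearest gene, the downstream summits sat mostly in the 5′ UTR and hardly ever in coding sequence. Exons and introns of other genes were not counted. A 5′ UTR held 257 of 370 summits (69.5%, 64.5 to 74.1), an intron 65 (17.6%, 13.8 to 21.8) and an exon of a non-coding transcript 31 (8.38%). A coding exon held 13 (3.51%, 1.88 to 5.93) and a 3′ UTR none (0%, up to 0.992%). The other 4 were outside every transcript of the nearest gene, because the transcript from that start ended before the summit. Coding exons held 1320 of the 4244 downstream regions under the threshold (31.1%, 29.7 to 32.5) and 99 of the 638 strongest of these (15.5%, 12.8 to 18.6). These weaker regions also lay farther out, with a median distance of 194 bp, so the shares were set side by side at matched distance. At 1 to 50 bp, coding exons held 0.625% of downstream peaks and 3.39% of weaker regions. At 101 to 200 bp the values were 10.3% (6 of 58) and 31.0%, and at 301 to 500 bp they were 7.41% (4 of 54, 2.06 to 17.9) and 47.8% (44.9 to 50.6). For the strongest of the weaker regions the shares were 2.90% (1.07 to 6.20), 23.5% (16.2 to 32.2) and 22.3% (15.0 to 31.2) at these distances. Those intervals overlapped the intervals of the peaks. At 201 to 300 bp they did not, with 3.70% (0.0937 to 19.0) of peaks and 31.25% (22.2 to 41.5) of the strongest weaker regions. The 13 coding summits were all weak: their median signal value was 73.6 and the highest 93.5, and none was in the stronger of 2 equal parts of the IDR list.

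Farther from the start, introns took the place of 5′ UTRs. The share in a 5′ UTR was 92.5% at 1 to 50 bp, 87.3% at 51 to 100 bp, 62.1% at 101 to 200 bp, 22.2% at 201 to 300 bp and 9.26% at 301 to 500 bp. The share in an intron was 1.25%, 5.63%, 22.4%, 59.3% (16 of 27) and 55.6% (30 of 54) over the same steps. At 301 to 500 bp, 26.7% (24.3 to 29.3) of weaker regions lay in an intron, and 44.6% (35.2 to 54.3) of the strongest of them. The first intron of a transcript from the start held 62 summits. There the first exon had a median length of 138 bp, and the summit lay a median of 141.5 bp past its end (quartiles 66.3 and 194.8 bp), compared with 84 bp for the 650 weaker regions in a first intron.

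**Figure D3:**
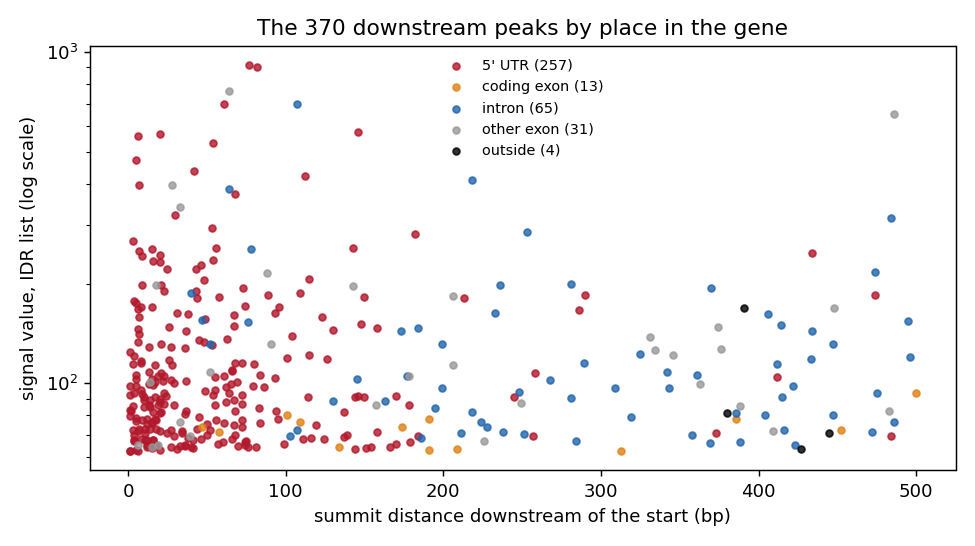
Signal value in the IDR list (log scale) against the distance of the summit downstream of the start for the 370 downstream peaks, coloured by the part of the gene that holds the summit. Peaks in the 5′ UTR crowd within 100 bp of the start, intronic peaks spread from 40 to 496 bp, and no coding exon peak exceeds 93.5.

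The 25 strongest downstream peaks came from a mixed set of genes and ranked high in both replicates. They were chosen by a signal value that derives from both replicates, so high ranks in each follow in part from the choice. Signal values are the authors' own and are compared only within a list. The strongest lay 77 bp downstream of the start of PNPase, polynucleotide phosphorylase, an RNA-degrading enzyme of mitochondria, with a signal value of 913.7. It ranked 9 in the IDR list, 10 in replicate 2 and 8 in replicate 3, with replicate summits 78 and 79 bp downstream. Chro, which encodes the chromodomain protein Chromator of interbands and domain borders, came next with 904.7 at 82 bp, ranked 9 in replicate 2 and 10 in replicate 3. Its summits in the replicates lay at 80 and 82 bp, and the gene on the other side is Ssl1, a subunit of the general factor TFIIH. In both genes the replicate summits lay within 2 bp of the IDR summit.

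Next in strength were asRNA:CR45928 (765.4 at 64 bp), an antisense RNA that begins beside eIF6, CG8320 (698.9 at 107 bp, in its first intron) and GstE13, a glutathione S-transferase gene (696.8 at 61 bp). The non-coding gene lncRNA:CR44619 had its peak 486 bp downstream, in its exon 1, with a value of 649.2 and ranks of 33 and 27 in replicates 2 and 3. The peaks of tank (146 bp, 572.6), CG8360 (20 bp, 564.7), CG9147 (6 bp, 559.7) and CG32022 (5 bp, 474.1) each lay beside the start of another gene. Of these, CG32022 had its replicate summits on opposite sides of the start, 5 bp downstream in replicate 2 and 15 bp upstream (-15) in replicate 3.

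Among genes of known function, mRpL23, a protein of the mitochondrial ribosome, had a value of 533.9 at 54 bp and ranked 47 and 45 in replicates 2 and 3. RpL7, of the cytosolic ribosome, had 437.8 at 42 bp and ranked 93 and 57. Fer2LCH, the light chain of ferritin, the iron storage protein, had 410.8 at 218 bp in its first intron, with ranks of 90 and 74 and replicate summits 156 and 224 bp downstream. The start of Fer1HCH, the ferritin heavy chain, lies within 500 bp on the opposite strand, so the peak is near both ferritin genes. Trmt6, a subunit of a tRNA methyltransferase, had 374.0 at 68 bp, and Elp5, a subunit of the Elongator complex, had 294.1 at 53 bp.

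The other strong peaks were at CG10413 (423.1), lncRNA:CR31840 (397.1), CG4497 (396.8), CG11309 (385.6), lncRNA:CR44149 (339.9), CG8892 (322.7), CG31612 (315.0), rudhira (286.2), CG18622 (282.0) and CG10747 (269.3). The intronic ones were those of CG31612, 484 bp downstream with ranks of 196 and 112, of rudhira, 253 bp downstream with ranks of 244 and 142, and of CG11309, 64 bp downstream with ranks of 163 and 69. Of the 25, 16 lay in a 5′ UTR, 5 in an intron and 4 in an exon of a non-coding gene, and none in coding sequence. Another gene started within 500 bp of 16 of them, and 3 held any of the 5 promoter words near the summit. Their ranks reached no lower than 244 in replicate 2 and 191 in replicate 3, and in 23 of 25 both replicate summits lay downstream of the same start.

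As a group the downstream peaks were of ordinary strength. Their median signal value was 93.6 (62.5 to 913.7), beside 101.5 for the 1558 upstream peaks and 97.2 for all IDR peaks. In the strongest 100 IDR peaks 18 were downstream and 58 upstream, and in the strongest 25 there were 4 downstream. Peaks in introns had a median of 102.4, those in non-coding exons 113.7 and those in 5′ UTRs 92.1. GC content within 50 bp of the summit had a median of 40.6%, beside 37.6% for upstream peaks, 33.7% for IDR peaks beyond 500 bp and 48.5% for downstream regions under the threshold. For the strongest of these weaker regions the median was 46.5%.

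Many downstream peaks were also upstream of something else. Another gene started within 500 bp of 168 of 370 summits (45.4%, 40.3 to 50.6), against 18.5% of the downstream regions under the threshold and 24.5% (21.2 to 28.0) of the strongest of them. In 155 cases (41.9%, 36.8 to 47.1) the summit was upstream of a start of another gene on the opposite strand, as between Chro and Ssl1, against 13.2% and 18.8% in the same sets of weaker regions. In 128 (34.6%) it was upstream of another start of the same gene, against 5.09% and 8.31%. The weaker regions lay farther from their start, at a median of 194 bp, and 111 bp for the strongest, against 64 bp. These shares were not taken at matched distance, so the part of distance in the differences was not tested. With starts on the same strand counted as well, 202 peaks (54.6%) lay upstream of some other start within 500 bp and 168 (45.4%) lay upstream of none. The 144 peaks with 1 start position in reach had a median signal value of 86.2, and the 226 with more had 100.9. An upstream IDR peak at the same start accompanied 6 of the 370.

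Promoter words were found near a minority of the downstream summits, and more often near those close to the start. Any of the 5 words lay within 50 bp of 71 of 370 summits (19.2%, 15.3 to 23.6), beside 24.6% (22.5 to 26.8) of upstream peaks, 7.40% (6.63 to 8.23) of downstream regions under the threshold, 12.1% (9.64 to 14.9) of the strongest of these and 7.30% of all 30000 listed regions. The weaker regions lay farther out, so the shares were also taken at matched distance, a split chosen after seeing the data. For summits 1 to 50 bp downstream the share was 34.4% of the peaks (55 of 160, 27.1 to 42.3), 21.0% of regions under the threshold and 29.5% (61 of 207, 23.4 to 36.2) of the strongest of them. At 51 to 500 bp it was 7.62% of the peaks (16 of 210, 4.42 to 12.1), 4.26% of regions under the threshold and 3.71% (2.14 to 5.96) of the strongest. In both ranges the interval for the peaks overlapped that for the strongest weaker regions. CAACACTG, among the 5 words, had been picked out on these same peaks. An excess over weaker regions in that word, or in the pooled share, was therefore partly set by the choice of words. All 9 words were chosen with earlier results of these data known, so an excess in the others may share this limit. Peaks upstream of some other start held a word in 23.8% of cases and those upstream of none in 13.7%. In introns 2 of 65 held one (3.08%). A match of letters is a description of the sequence and does not show that a factor bound there.

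Taken word by word, motif 7 lay at 5.95% of downstream peaks (22, interval 3.76 to 8.86), 6.93% of upstream peaks, 2.40% of weaker downstream regions and 2.24% of all listed regions. Its form ending in G lay at 8.38% (31, 5.76 to 11.7), 8.60%, 2.83% and 3.10% of the same sets, and CAACACTG at 3.78% (14, 2.08 to 6.27), 6.16%, 0.589% and 0.883%. The DRE lay at 1.35% of downstream peaks (5, 0.440 to 3.13) and 5.39% of upstream peaks (4.32 to 6.63), with 0.825% of weaker downstream regions and 1.15% of all. The M1BP motif lay at 1.62% (6), 0.899%, 1.06% and 0.500%. Both stood at a higher share of the strongest weaker downstream regions, 1.57% for the DRE and 2.35% for the M1BP motif, with intervals that overlap those of the peaks. At 1 to 50 bp, motif 7 lay at 10.6% of the peaks and 9.66% of these strongest weaker regions, its form ending in G at 15.0% (9.85 to 21.5) and 7.25% (4.11 to 11.7), and CAACACTG at 5.63% and 3.86%. For each of these words the intervals of the 2 sets overlapped. All DRE and M1BP matches were at summits 1 to 50 bp downstream, and none was found at the 210 summits farther out (0%, up to 1.74%). At 1 to 50 bp the DRE lay at 3.125% (1.02 to 7.14) of the peaks and 4.83% (2.34 to 8.70) of the strongest weaker regions. The M1BP motif lay there at 3.75% (1.39 to 7.98) and 6.28% (3.39 to 10.5). With 100 bp searched to each side, the DRE lay at 5.41% of downstream peaks (20 of 370) and the M1BP motif at 3.78% (14). No share of upstream peaks is given at that width, so the DRE contrast is stated for 50 bp alone. Upstream peaks were not split by distance, so that contrast is not at matched distance from the start.

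The words were found on both strands. Within the 50 bp searched to each side of the summit, motif 7 had 23 sites, 15 of them on the strand of the gene, at a median of 16.5 bp to either side of the summit. Its form ending in G had 35 sites, 21 on the strand of the gene, at 24.5 bp, and CAACACTG had 16, 6 on the strand of the gene, at 21 bp. Of the shorter words, GATAA lay at 20.8% of downstream peaks, 15.9% of weaker downstream regions and 18.3% of all listed regions, and TATAAA at 12.2% (9.01 to 15.9), 6.55% and 9.89%. The E-box word CAGCTG lay at 5.95%, 7.45% and 5.64%, and GAGAG at 8.11% (5.54 to 11.4), 13.6% and 12.6%. Upstream peaks held GATAA in 24.97% of cases, TATAAA in 15.3%, CAGCTG in 7.64% and GAGAG in 10.6%. Each of these shares was above that of the downstream peaks, with intervals that overlap. Median GC content was 40.6% at downstream peaks, 37.6% at upstream peaks and 48.5% at weaker downstream regions. Its part in these shares was not tested. A DRE followed by A also holds GATAA.

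**Figure D4:**
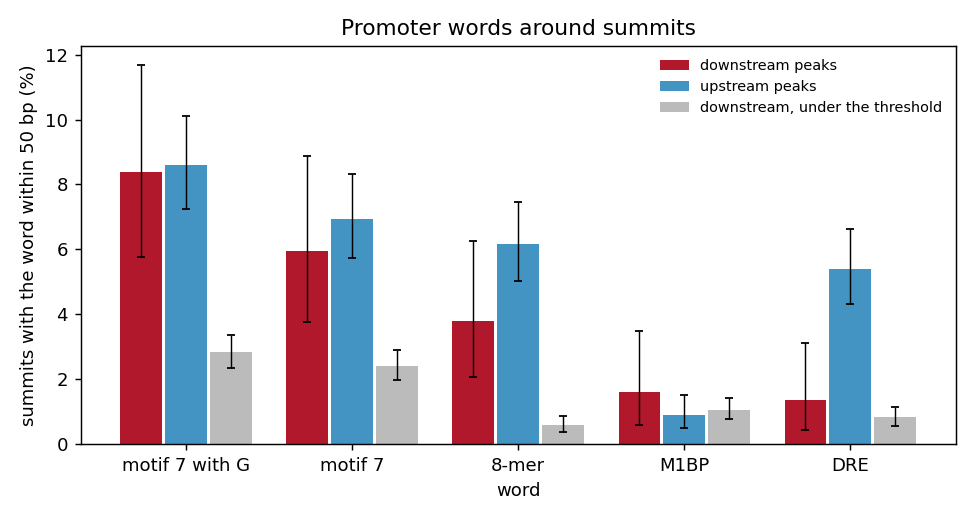
Share of summits with each promoter word within 50 bp, for the 370 downstream peaks (red), the 1558 upstream peaks (blue) and the 4244 downstream regions under the threshold (grey); bars show exact 95% binomial intervals over regions, and 8-mer is the word CAACACTG. Motif 7 stands at 5.95% and 6.93% of downstream and upstream peaks, and the DRE at 1.35% and 5.39%. Distances from the start are not matched between the sets.

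The 370 peaks belonged to 359 genes, 11 of which had 2 downstream peaks each. By class, 332 peaks lay at protein coding genes, 34 at non-coding RNA genes, 2 at snoRNA genes, 1 at an snRNA gene and 1 at a pseudogene. Of the 13968 protein coding genes annotated, 2.31% had a downstream peak and 10.2% an upstream one. Lists of gene groups were read against these shares, as counts with no test of a group.

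By count, cytosolic ribosomal proteins had the most downstream peaks of any list. Of 89 genes for cytosolic ribosomal proteins, 15 had one (16.9%, 9.75 to 26.3) and 41 had an upstream peak (46.1%), so both were above the shares of all genes. Of the 15 summits, 12 lay within 50 bp of the start and the median distance was 13 bp. The strongest were at RpL7, at RpL26 (187.0, in the intron after an exon 1 of 40 bp) and at RpS21 (170.1, at 8 bp). RpL26 ranked 474 and 423 in replicates 2 and 3, and RpS21 ranked 504 and 722. A promoter word lay near the summit in 5 of these genes, RpL7, RpL27A, RpL27, RpL36 and RpS15Aa, of which RpL27 and RpS15Aa were picked out after their values were seen. In 10 of the 15 both replicate summits lay downstream. Translation initiation factors had 5 of 44 (11.4%, 3.79 to 24.6), led by the eIF3 subunits eIF3c (250.8, at 7 bp) and eIF3h (199.3, at 281 bp) and by eIF2beta (71.2, at 238 bp). Mitochondrial ribosomal proteins had 4 of 73 (5.48%), led by mRpL23, mRpS11 (105.2) and mRpL42 (99.1), and aminoacyl tRNA synthetases 1 of 33 (3.03%), SerRS (235.6).

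By share, the highest value was that of the Polycomb group, which keeps developmental genes silent, with 4 of 19 (21.1%, 6.05 to 45.6). The peak of ph-p, a subunit of Polycomb repressive complex 1, lay 434 bp downstream with a value of 248.3 and ranks of 177 and 264 in replicates 2 and 3. Those of Su(z)12 and E(z), of Polycomb repressive complex 2, lay at 74 and 21 bp with values of 171.4 and 107.4. Among 20 genes for insulator and architectural proteins there were 3 (15.0%, 3.21 to 37.9), Chro, Trl (256.5, at 143 bp) and pita (89.2, at 67 bp). Trl, the GAGA factor, is also one of 2 of 20 trithorax group genes with a peak, beside Bap170 (66.7).

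The other groups had 3 downstream peaks or fewer each. Oxidative phosphorylation had 2 of 88 (2.27%), ATPsynC (113.4) and UQCR-14 (64.2), the proteasome 1 of 48 (2.08%), Rpn3 (163.2), and the splicing list 3 of 29 (10.3%, 2.19 to 27.4), tra2 (67.3), x16 (66.5) and SC35 (64.8). Chaperones had 2 of 25 (8%, 0.984 to 26.0), Hsp83, the fly Hsp90 (187.7, at 109 bp), and Hsc70-5, a mitochondrial Hsp70 (143.8, at 37 bp), and the cell cycle list 1 of 29 (3.45%), Dp, the partner of E2F (91.1). Mediator had none of 29, RNA polymerase II and its general factors none of 41 and DNA replication none of 31, while upstream peaks stood at 5, 6 and 5 of their genes. Hox and homeotic genes had none of 15, and the gap and pair-rule list had 1 of 20 (5%), cnc. Muscle markers had 2 of 21 (9.52%, 1.17 to 30.4), the transcription factor gene Mef2 (76.7) and mbc (62.5, the weakest of all 370). The start of mbc also lies within 500 bp of the stronger peak of Nup98-96 (256.4, at 56 bp), a gene named after its values were seen. Both peaks were matched to a region of rank 218 in replicate 2. Markers of neurons (19), glia (12), gut (10), hemocytes (13) and fat body (13) had none. With lists this short a count of none is not distinguishable from the 2.31% of all genes, since the upper ends of the intervals run from 8.60% for RNA polymerase II and its general factors to 30.8% for the gut.

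Nearly all of these peaks had a region in both replicate lists, and beyond 100 bp their summits lay on the same side of the start in both. Both replicate lists held a region overlapping 368 of 370, with Gadd45 and the peak of eIF3h at 47 bp missing from replicate 2 (named after their values were seen), and 272 (73.5%, 68.7 to 77.9) overlapped one of the strongest 3033 regions in both. Since IDR peaks are selected through these lists, this describes the selection. The median rank was 1653.5 in replicate 2 and 1585 in replicate 3, and 66 and 34 members ranked below 3033 there. Summits shifted from the IDR summit by a median of 22 bp in replicate 2 (quartiles 7 and 40 bp) and 7 bp in replicate 3 (2 and 24 bp). In 287 peaks (77.6%, 73.0 to 81.7) both replicate summits lay downstream of the same start, in 69 (18.6%) 1 did and in 14 (3.78%) neither did.

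The share with both replicate summits downstream rose with the distance from the start. A summit farther out must shift more to cross the start, and median shifts were 22 and 7 bp in replicates 2 and 3. Replicate regions were also matched by nearest summit. The rise thus follows in part from how the side was read. For summits 1 to 20 bp downstream, both replicate summits were downstream in 41.8% (41 of 98, 31.9 to 52.2), and at 21 to 50 bp in 71.0% (44 of 62). At 51 to 100 bp it was 90.1% (64 of 71) and at 101 to 500 bp 99.3% (138 of 139, 96.1 to 100). Of the 98 nearest, 46 had a downstream summit in 1 replicate alone and 11 in neither. Among the strongest 25 peaks the side differed at CG32022 and at CG4497, whose replicate 2 summit lay 3 bp upstream (-3) and whose replicate 3 summit lay 22 bp downstream.

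**Figure D5:**
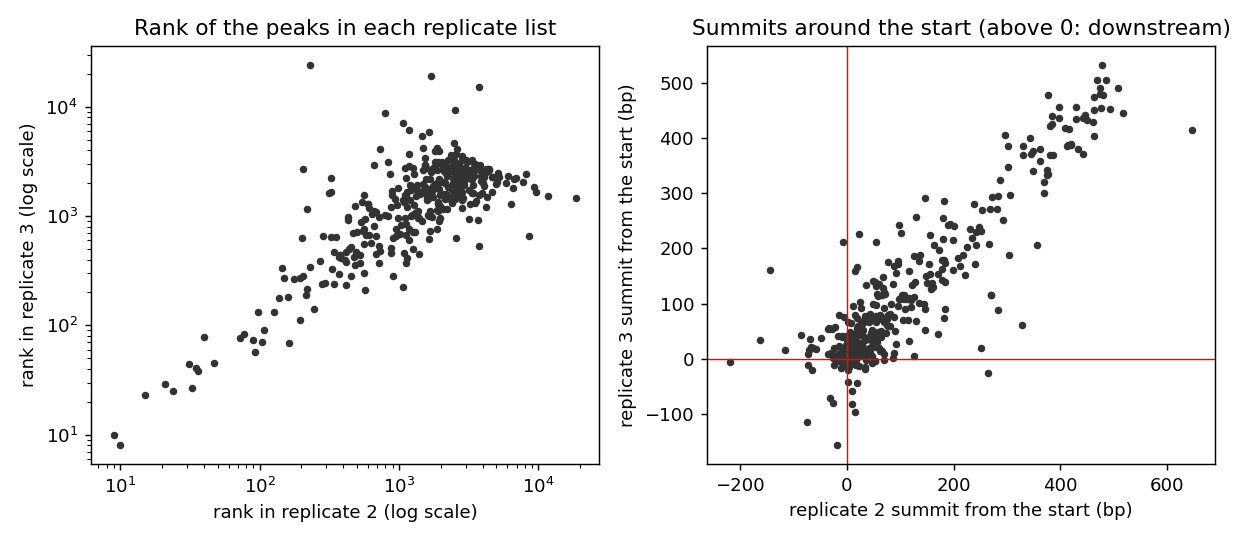
Left, rank of each downstream peak in the list of replicate 2 against its rank in that of replicate 3, both on log scales; right, position of the replicate summits relative to the start of the same gene, with values above 0 downstream and red lines at the start. Points near the start cross the lines, and those beyond 100 bp lie downstream in both replicates in 138 of 139 peaks.

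Just inside 500 bp were cta (500 bp, 93.5), CG11151 (496 bp, 120.5) and kuk (495 bp, 154.0), and just outside were Fbl6 (508 bp, 246.5) and mats (510 bp, 71.3). At the start itself, 7 peaks lay 1 bp downstream with values from 62.5 to 124.1, 5 lay exactly on a start with values from 79.9 to 218.7, and 5 lay 1 bp upstream with values from 65.9 to 192.0.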

How the data were processed

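The authors deposited narrowPeak lists on dm6 called on each replicate alignment and on both together, and an IDR thresholded list derived from them, per the file manifests. The aligner, peak caller and IDR threshold were not given in the sources used here. Each deposited signal value and summit offset (bp) was used as it stands. The depth of the libraries is unknown. Lists on dm3 were not used.

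Summits were placed against transcript starts of Ensembl release 115 (BDGP 6.54), and bases were read from NCBI's copy of that assembly, Release 6. Regions under the threshold are those of the pooled list of 30000 that overlap no IDR peak (26329). Replicate regions overlapping a peak by at least 1 bp were matched by nearest summit. The place of a summit was read from the transcripts of its nearest gene alone. Coding exon was given precedence over 5′ UTR, 3′ UTR, other exon and intron. Words were searched in 101 bp. Intervals are exact (Clopper-Pearson) at 95%. No test was made, as the series has 1 group. The code, checked on simulated data, found 600 of 600 nearest starts and 600 of 600 planted copies of the words with fixed letters. Motif 7, its form ending in G and the M1BP motif were not planted, so their search was not checked in this way.

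The members, 9 words and 23 gene lists were chosen with earlier results of these data known. The genes named are the 25 strongest members, up to 3 of each list with the strongest peak, and, for each word printed, the strongest holders outside the arm not shown; any other is said to be named after its values were seen, apart from genes at the edges of the window. Alternatives varied the starts, distance, threshold, window, overlap and replicates. Tools were pandas 2.3.3 and numpy 2.4.6 in Python 3.11.15, with intervals from scipy 1.17.1 and plots from matplotlib 3.10.9.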

Additional observations from a re-analysis of the deposited data

How the results depend on the processing

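Of 80 recomputed values of the main results, 40 kept within the 95% interval, the spread or 1.5 times of the value reported, and 40 moved. Of the recomputed shares of peaks with a word, 74 kept and 16 moved, among them the DRE share with 100 bp to each side. The share of IDR peaks that lie downstream of a start, 12.2%, was 11.0% with starts of protein coding genes alone. It was 9.53% at 1 to 200 bp and 16.6% at 1 to 1000 bp. Where 1 replicate was left out, here and below, the strongest regions of the other replicate's list, as many as the IDR peaks, stood in for them. Such values are not taken from IDR peaks. Of these strongest regions, 13.0% to 13.7% lay downstream of a start. The downstream share of summits near a start, 19.2%, was 21.1% with canonical starts alone, 22.7% at 1 to 1000 bp, 17.4% in the stronger of 2 equal parts of the peaks and 20.7% to 21.7% with 1 replicate left out; 22.7% at 1 to 100 bp and 16.1% with 1 start position within 500 bp were alternatives chosen after seeing the data. The median distance of 64 bp became 43 bp at 1 to 200 bp, 135.5 bp at 1 to 1000 bp, 81.5 bp with canonical starts and 67 to 72 bp with 1 replicate left out. The 5′ UTR share of 69.5% became 85.1% at 1 to 200 bp, 52.6% at 1 to 1000 bp and 77.2% with protein coding genes alone. The intron share of 17.6% became 6.57%, 34.3% and, with canonical starts, 13.1%. The coding exon share, 3.51%, was 0% in the stronger part of the peaks and 4.30% to 5.28% with 1 replicate left out, all of them alternatives chosen after seeing the data. Peaks with another gene start in reach went from 45.4% to 32.2% at 1 to 200 bp and to 52.6% in the stronger part. The median GC content of 40.6% ranged from 37.6% in the stronger part and 39.6% at 1 to 1000 bp to 40.8% with 100 bp to each side and 41.6% at 1 to 200 bp, with canonical or protein coding starts, and with either replicate left out.

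In the stronger part of the peaks 175 members and 8 ribosomal protein genes remained of 370 and 15, as fewer peaks entered, and 16 to 20 ribosomal protein genes had one with 1 replicate left out. The share of listed downstream regions that are IDR peaks, 7.66%, was 11.0% at 1 to 200 bp and 6.80% at 1 to 1000 bp. With 1 replicate left out, 8.23% to 9.71% of listed downstream regions were among the strongest of the other replicate's list, with no IDR threshold applied. Overlap in both replicates was 97.8% when at least 50% of the shorter region had to be shared, and 99.5% to 100% with 1 replicate. Both replicate summits were downstream in 77.6%, and 84.5% to 89.7% were with 1 replicate read alone. The recomputed values are single counts, shares and medians. Differences from weaker regions were not among them, so whether such a difference would reverse was not examined. The cause of the values that moved was not tested beyond what each setting changes. No paired analysis was possible because the series has 1 group. The missing reads limit every statement here to counts of regions, and neither enrichment over input nor its error can be stated.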
